A study of Mus musculus with 8 samples.

Results

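The genes described here decide whether a resting cell leaves G1 and starts to copy its DNA: the D-type cyclins Ccnd1, Ccnd2 and Ccnd3, the E-type cyclin Ccne1, the cyclin-dependent kinase Cdk4, the kinase inhibitors Cdkn1a, Cdkn1b, Cdkn1c and Cdkn2c, and the retinoblastoma gene Rb1. They were chosen by name, and every probe set whose platform annotation names 1 of these 10 genes was taken. This gave 26 probe sets among the 45037 that are not array controls, which name 18193 genes singly, and none of the 26 names a further gene. A probe set is the group of short oligonucleotides that reads a transcript on an Affymetrix array, and several can read the same gene.

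RNA came from pancreatic islets of the inbred mouse strains AKR/J and C57Bl/6J, both kept for 3 months on a high-fat diet, with no group on another diet analysed here. There were 4 samples per strain, each pooled from the islets of 2 mice, on arrays called 1 to 4 here for AKR/J and, for C57Bl/6J, 5 to 8; the labels name no engineered allele, and age and sex are not given in the labels used here. The question was which islet genes differ in level between the strains on this diet. The p-values here weigh the strain difference against the spread between these pools, not between single mice.

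As background, D-type cyclins bind CDK4 or CDK6 and start the phosphorylation of the retinoblastoma protein, which otherwise holds the E2F transcription factors in check. Cyclin E with CDK2 completes that phosphorylation, and E2F then switches on the genes of DNA synthesis. Inhibitors of the INK4 family, such as p18 from Cdkn2c, bind CDK4 and CDK6 alone, whereas the CIP/KIP inhibitors p21, p27 and p57, from Cdkn1a, Cdkn1b and Cdkn1c, bind cyclin and kinase complexes. In mouse islets cyclin D2 and CDK4 are known to be needed for beta cells to multiply after birth, and p27 and p18 are known to restrain it.

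Values are log2 GCRMA values unless a signal is named. GCRMA is the authors' summary of each probe set across arrays, and the signal is the MAS5-type value of a single array on a linear scale, scaled per array. A probe set counts as detected on an array where the detection p-value of its per-array file is under 0.05. The strains differed over much of the array. The first principal component of the 20772 tested probe sets, those detected on at least 4 of the 8 arrays, held 59.1% of the variance and separated the strains. The second held 13.7% and put arrays 1, 2, 5 and 6 on 1 side and arrays 3, 4, 7 and 8 on the other, so it cut across the strains; nothing in the labels names a batch of that kind. Between 43.7% and 48.1% of probe sets were detected per array, and the Gapdh control read near its 3' end against its 5' end gave log2 ratios of -0.43 to -0.35 on AKR/J arrays and -0.32 to -0.07 on C57Bl/6J arrays. The same ratio for Actb overlapped between the strains, at 0.70 to 0.84 and 0.68 to 0.75. Precision is limited by having 4 arrays per strain.

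Among these genes the inhibitor Cdkn2c stood higher in AKR/J, 1.94-fold, and the brightest probe sets of the other 8 tested genes did not pass the test. Of the 26 probe sets 22 could be tested, for 9 of the 10 genes. The strain difference was fitted with limma over all 20772 tested probe sets and adjusted by Benjamini-Hochberg over all of them, and a probe set is called where the adjusted p is under 0.05. Of the 22, 2 were called higher in AKR/J, against 6.59% of all tested probe sets, and 4 were called lower, against 7.7%. Of the 4, the Ccnd3 probe set 1438805_at was detected in C57Bl/6J alone and so could enter the test only by being high there; over the 21 probe sets detected in both strains 2 were called higher and 3 lower. The 6 calls compare with 14.3% called over the whole array in either direction. With each gene represented by its brightest tested probe set, 1 of 9 genes was called, where 16.3% of 10891 genes were. The strains did not overlap for 6 of the 22 probe sets, against 22.9% of all tested probe sets, and for 2 of the 9 genes, against 25.1% of all genes. The median difference was 0.08 over the 22 probe sets and -0.01 over all tested probe sets. In RNA of whole islets, a change in the number of cells that express a gene and a change in RNA per cell cannot be told apart.

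**Figure D1:**
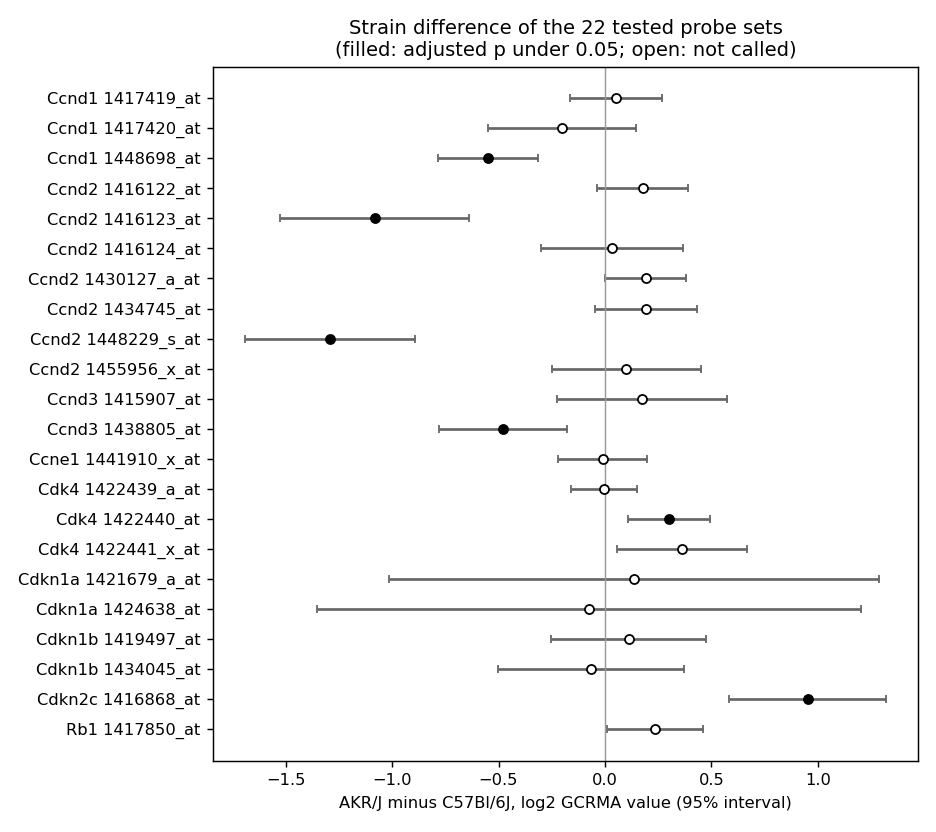
Strain difference (x axis, AKR/J minus C57Bl/6J, log2 GCRMA value) of each of the 22 tested probe sets (y axis), with its 95% interval from the limma fit; filled points have an adjusted p under 0.05 and open points do not. Cdkn2c lies at 0.95 and the Ccnd2 probe set 1448229_s_at at -1.29, while the other Ccnd2 readings apart from 1416123_at lie between 0.03 and 0.19.

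The 6 called probe sets did not speak for their genes alike. Of the 6 member genes with at least 2 tested probe sets, 4 had some but not all of them called, namely Ccnd1, Ccnd2, Ccnd3 and Cdk4, or 3 of 5 such genes without 1438805_at. Over the array, 948 of 4674 such genes (20.3%) had some but not all called. Probe sequences were not used here, so which part of a transcript each probe set reads, and whether the strains differ in sequence there, was not tested.

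Cyclin D2, the D cyclin named above as needed for beta cell growth, was read by 7 probe sets, all detected on all 8 arrays. The 3 brightest were close to each other and leaned slightly higher in AKR/J, and none of the 3 was called. Probe set 1434745_at was at 13.45, 13.26, 13.54 and 13.25 on the AKR/J arrays and at 13.30, 13.22, 13.24 and 12.96 on the C57Bl/6J arrays. The strains overlapped, with array 8 lowest of all. The difference was 0.19 (95% interval -0.05 to 0.43; limma adjusted p = 0.253). For 1430127_a_at the difference was 0.19 (95% interval 0.003 to 0.38, adjusted p = 0.161). For 1416122_at it was 0.18 (-0.04 to 0.39, adjusted p = 0.242). Probe set 1455956_x_at gave 0.10 (adjusted p = 0.704) and 1416124_at, the dimmest of the 7, gave 0.03 (adjusted p = 0.91).

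The other pair of Ccnd2 probe sets read higher in C57Bl/6J. Probe set 1448229_s_at was at 10.03, 9.83, 10.21 and 9.98 in AKR/J and, in C57Bl/6J, at 11.63, 11.15, 10.88 and 11.55. All 4 C57Bl/6J arrays lay above all 4 AKR/J arrays, by 2.45-fold in the means (difference -1.29, SE 0.17; adjusted p = 0.00231). Probe set 1416123_at was at 9.36, 9.03, 9.41 and 8.86 in AKR/J against 10.58, 9.89, 10.02 and 10.49 in C57Bl/6J. It too was higher on every C57Bl/6J array, 2.12-fold (difference -1.08, SE 0.19; adjusted p = 0.00862).

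The MAS5-type signals gave the same split. For 1448229_s_at they were 1179, 1130, 1300.5 and 1180 in AKR/J and 2902, 2075, 2062 and 2872 in C57Bl/6J. For 1434745_at they were 8372 ± 428 and 7800 ± 620 (SD, n = 4 each). On each array the gap between 1434745_at and 1448229_s_at was 3.27 to 3.43 on the log2 scale in AKR/J against 1.41 to 2.37 in C57Bl/6J, so these readings of the same gene changed unequally between the strains. Both of the called probe sets are annotated to the same transcript record as 1416122_at and 1416124_at, which were not called. The mean of all 7 probe sets gave a difference of -0.24 (adjusted p = 0.103).

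**Figure D2:**
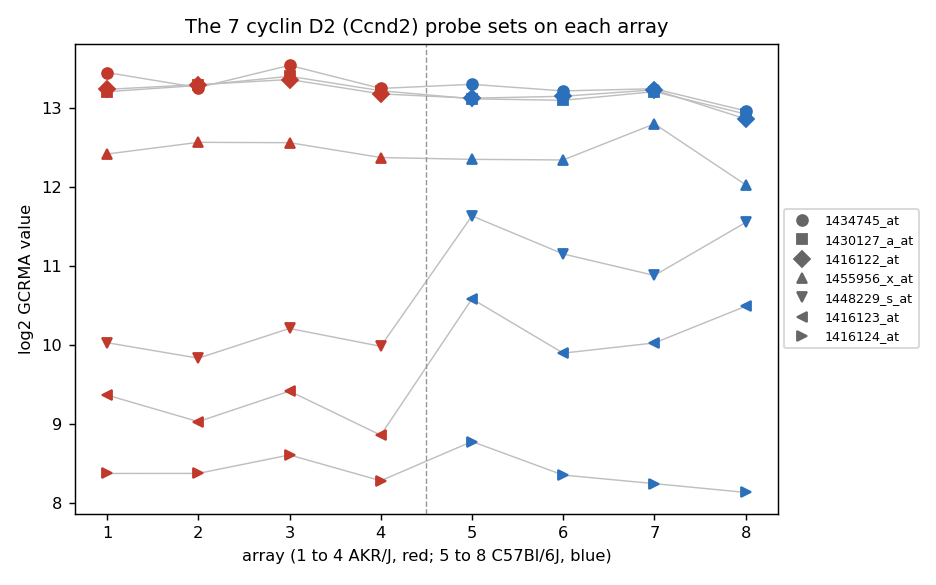
Log2 GCRMA value (y axis) of each of the 7 Ccnd2 probe sets on each array (x axis; arrays 1 to 4 AKR/J in red, 5 to 8 C57Bl/6J in blue); the marker shape names the probe set and grey lines join the same probe set. The probe sets 1448229_s_at and 1416123_at step up from AKR/J to C57Bl/6J while the 3 brightest stay between 12.86 and 13.54.

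Cyclin D1, the D cyclin most closely tied to growth factor signals, was read by 3 probe sets detected on all arrays, and 1 of them was called. Probe set 1448698_at was at 9.61, 9.63, 9.93 and 9.47 in AKR/J, and C57Bl/6J gave 10.23, 10.22, 10.12 and 10.27. The strains did not overlap, and C57Bl/6J was 1.46-fold higher (difference -0.55, SE 0.10; adjusted p = 0.0103). The brightest, 1417420_at, was at 9.58, 9.78, 10.05 and 10.18 in AKR/J against 10.07, 9.87, 10.13 and 10.33 in C57Bl/6J, and these ranges overlapped. Its difference was -0.20 (95% interval -0.55 to 0.15; adjusted p = 0.418), and that of 1417419_at was 0.05 (-0.16 to 0.27; adjusted p = 0.753). With the MAS5-type signals 1448698_at did not pass (difference -0.46, adjusted p = 0.0732).

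Cyclin D3, the remaining D cyclin, gave a clear signal in 1 of its 3 probe sets. Probe set 1415907_at was at 8.45 on array 1 and 7.97 to 7.99 on the other AKR/J arrays, against 8.22, 8.14, 7.59 and 7.74 in C57Bl/6J. The strains overlapped (difference 0.18, 95% interval -0.22 to 0.57; adjusted p = 0.543). The dim 1438805_at was detected on 0 of 4 AKR/J arrays and on all 4 C57Bl/6J arrays. Its values were 4.43, 4.60, 4.40 and 4.43 against 4.59, 5.12, 4.89 and 5.17. The ratio of the means was 1.39-fold, higher in C57Bl/6J (95% interval 1.13 to 1.72, limma adjusted p = 0.0459). Without detection in AKR/J the level there is uncertain, so this fold is not an exact size. It was tested because it was detected in C57Bl/6J, so this call supports no count over the members. Array 5 lay just below AKR/J array 2, so the strains overlapped. On the MAS5-type signals this probe set was at 17.1 to 34.7 in AKR/J against 67.8 to 76.1 in C57Bl/6J (difference -1.43, adjusted p = 0.0054). In the GCRMA values, however, it was called in only 1 of the 8 fits that left out an array, the fit without array 5 (adjusted p = 0.0101), with adjusted p = 0.0694 to 0.11 in the others. The third probe set, 1444323_at, was not detected on any array and was not tested.

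Cdk4, the kinase that the D cyclins activate, was read by 3 probe sets detected on all arrays. The brightest, 1422441_x_at, was at 9.34, 9.56, 9.40 and 9.28 in AKR/J against 8.85, 9.27, 8.78 and 9.23 in C57Bl/6J. The AKR/J arrays all lay above the C57Bl/6J arrays, with array 6 just below array 4, and the probe set did not pass (difference 0.36, 95% interval 0.06 to 0.67; adjusted p = 0.109). Probe set 1422440_at was at 8.87, 8.98, 8.78 and 8.84 against 8.48, 8.76, 8.51 and 8.52 and passed narrowly, 1.23-fold higher in AKR/J (adjusted p = 0.0483). It too did not overlap, with array 6 just below array 3. Of the 8 fits that left out an array it was called in the fit without array 6 alone (adjusted p = 0.0212), and in the others the adjusted p was 0.0592 to 0.119. Probe set 1422439_a_at showed -0.01 (95% interval -0.16 to 0.15; adjusted p = 0.969). The strains lay at 9.11 ± 0.04 and 9.12 ± 0.09 (SD, n = 4 each), and of the 22 tested probe sets it had the narrowest interval.

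Start-site sequences from RefSeq (GRCm38.p6) were matched by gene symbol for 6 of the 10 genes, in 9 windows of 300 bases, from 250 before to 50 after a start site. The Cdk4 window is shown because it holds the E-box CACGTG, the core bound by USF and related helix-loop-helix factors, 4 times. Of 32851 such windows 7.15% held that motif on either strand at least once and 8 held it at least 4 times. The Cdk4 window was chosen for that count, so the rarity is no test. It lies at chr10:127063285-127063584 on the + strand, with the E-boxes in capitals, the first at position -172 and the last at -11 from the start site.
Cdk4: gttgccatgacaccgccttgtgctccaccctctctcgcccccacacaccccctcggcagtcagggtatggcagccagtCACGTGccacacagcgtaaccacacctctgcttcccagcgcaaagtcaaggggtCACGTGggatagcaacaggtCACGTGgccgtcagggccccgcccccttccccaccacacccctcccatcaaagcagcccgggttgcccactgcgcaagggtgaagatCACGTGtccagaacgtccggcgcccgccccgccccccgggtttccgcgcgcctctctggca

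The E-type cyclin Ccne1 was near background. Probe set 1416492_at was not detected on any array, at 4.95 to 5.04 in AKR/J against 4.41 to 4.94 in C57Bl/6J. Probe set 1441910_x_at was detected on 3 arrays of each strain yet had low values, with means of 3.14 ± 0.05 for AKR/J and 3.15 ± 0.17 for C57Bl/6J (SD, n = 4 each). Its difference was -0.01 (95% interval -0.22 to 0.20; adjusted p = 0.951).

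Cdkn2c, which encodes the INK4 inhibitor p18, was the member gene with the clearest difference. Its single probe set, 1416868_at, was at 7.32, 7.31, 7.82 and 7.80 on the AKR/J arrays and at 6.44, 6.47, 6.63 and 6.90 on the C57Bl/6J arrays. Every AKR/J array lay above every C57Bl/6J array, with array 8 the closest. AKR/J was 1.94-fold higher (difference 0.95, SE 0.16, 95% interval 0.58 to 1.32; limma adjusted p = 0.00658). The signals gave 458, 460, 578 and 589 in AKR/J against 275, 245, 287 and 406 in C57Bl/6J, again without overlap (adjusted p = 0.0192). The call held in all 8 fits that left out an array, with differences of 0.87 to 1.05 and adjusted p of 0.00779 to 0.0234. Among the other 10890 genes, those with the profile over the 8 arrays most like Cdkn2c were Utp18, Agpat2 and Ptp4a3. Their root mean square differences from it were 0.117, 0.118 and 0.125 on the log2 scale. All 3 were higher in AKR/J, by 0.82, 0.86 and 0.78, which follows from choosing them by that profile.

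**Figure D3:**
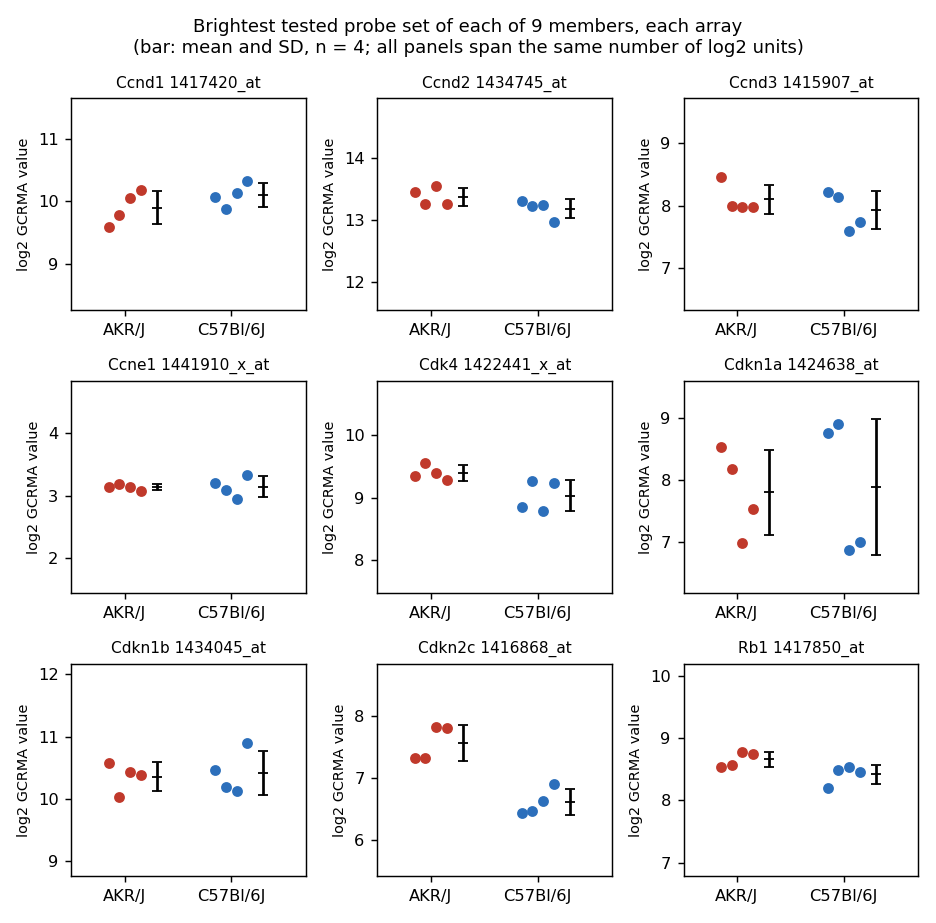
Log2 GCRMA value (y axis) of the brightest tested probe set of each of 9 member genes on every array, AKR/J in red and C57Bl/6J in blue, with the mean and SD (n = 4) beside the points; all panels span the same number of log2 units. The strains are apart for Cdkn2c, while Cdkn1a spreads from 6.88 to 8.90 within C57Bl/6J.

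RefSeq places Cdkn2c at a pair of start sites. The upstream window, chr4:109666707-109667006 on the - strand, is shown since Cdkn2c is the called gene. It is 73.3% G and C and holds the GC box GGGCGG, the core bound by SP1-type factors, 4 times, which 5.49% of all windows do at least as often. This is not particular to Cdkn2c, since the window of Ccne1, which was not called, also holds it 4 times, at 76% G and C. The downstream Cdkn2c window holds it 0 times, at 44% G and C. The GC boxes are in capitals. The E2F-type motifs TTTGGCGC, TTTCCCGC and TTTCGCGC, found in 1.84% of all windows on either strand, are in none of the 9 windows of the member genes. Only these exact letters were searched, so whether the windows hold other forms of the E2F site was not tested.
Cdkn2c: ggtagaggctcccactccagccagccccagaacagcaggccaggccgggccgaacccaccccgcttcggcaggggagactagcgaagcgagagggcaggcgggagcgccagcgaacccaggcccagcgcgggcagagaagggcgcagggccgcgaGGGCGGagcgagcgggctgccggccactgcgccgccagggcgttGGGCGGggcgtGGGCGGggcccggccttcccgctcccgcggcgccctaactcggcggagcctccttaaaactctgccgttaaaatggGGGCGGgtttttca

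Cdkn1a, which encodes p21, the inhibitor that p53 switches on after DNA damage and other stress, varied more between arrays of the same strain than between the strains. Probe set 1424638_at was at 8.53, 8.17, 6.99 and 7.53 on AKR/J arrays 1 to 4 and at 8.75, 8.90, 6.88 and 7.0 on C57Bl/6J arrays 5 to 8. Arrays 1, 2, 5 and 6 were high and arrays 3, 4, 7 and 8 were low, in both strains. The dimmer 1421679_a_at was at 6.65, 5.87, 4.60 and 5.04 and at 5.89, 6.12, 5.02 and 4.59, with the same 4 arrays high, and it was detected on those 4 arrays alone.

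The signals of 1424638_at were 669, 427, 226.5 and 325 in AKR/J against 713, 726, 197 and 215 in C57Bl/6J, with the same arrays high. The strain difference was -0.08 (95% interval -1.36 to 1.20; limma adjusted p = 0.944) for 1424638_at and 0.14 (-1.02 to 1.29; adjusted p = 0.888) for 1421679_a_at. These were the widest intervals among the 22 tested probe sets. A strain difference as large as that of Cdkn2c, in either direction, lay within both. The high arrays are those with a positive value on the second principal component, 0.20 to 0.46, and the low arrays those with a negative value, -0.50 to -0.20. The part of whatever that component reflects in the Cdkn1a values was not tested. The SD within a strain was 0.68 and 1.09 for 1424638_at, and at most 0.35 for the 20 tested probe sets of the other genes.

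**Figure D4:**
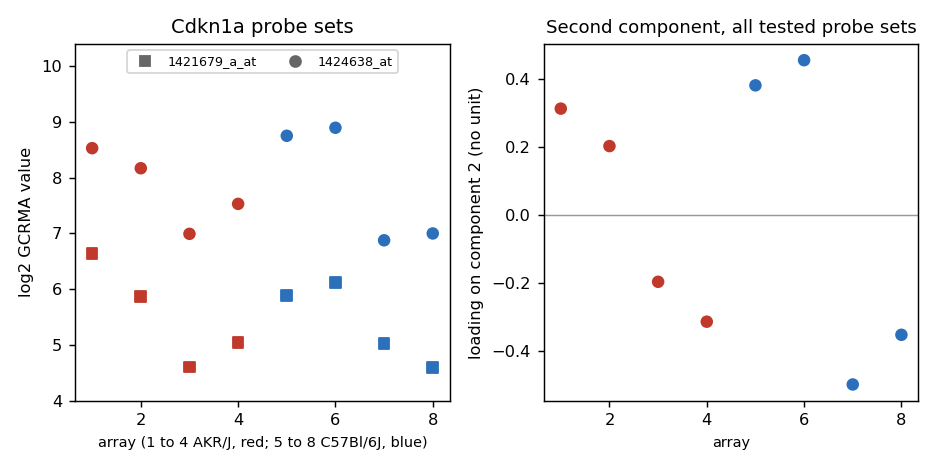
Left, log2 GCRMA values of both Cdkn1a probe sets (y axis) on arrays 1 to 8 (x axis; AKR/J in red, C57Bl/6J in blue); right, the value of each array on the second principal component of all tested probe sets (no unit). Arrays 1, 2, 5 and 6 are high in both panels and arrays 3, 4, 7 and 8 low.

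The upstream of the pair of Cdkn1a windows, chr17:29090729-29091028 on the + strand, is shown for the motif by which p53 recognises DNA. It holds AACATGTC and, across a short gap, its reverse complement, both in capitals, starting at -50 and -40 from that start site. These letters were taken from this window after it was read, so their rarity is no test. On either strand 0.554% of all windows held the motif and 1 window, this one, held it more than once.
Cdkn1a: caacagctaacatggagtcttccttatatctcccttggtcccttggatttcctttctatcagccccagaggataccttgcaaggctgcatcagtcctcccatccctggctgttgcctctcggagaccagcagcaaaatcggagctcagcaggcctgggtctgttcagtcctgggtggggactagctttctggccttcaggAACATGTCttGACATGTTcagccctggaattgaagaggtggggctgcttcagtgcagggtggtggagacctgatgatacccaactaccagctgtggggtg

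Cdkn1b, which encodes p27, did not differ detectably. Its bright probe set 1434045_at was at 10.58, 10.03, 10.43 and 10.38 in AKR/J against 10.47, 10.20, 10.12 and 10.90 in C57Bl/6J. The ranges overlapped and the difference was -0.07 (95% interval -0.50 to 0.37; adjusted p = 0.855). On the signals array 8 stood out at 802, against 323.5 to 511 on the other 7 arrays. The dim 1419497_at, detected on 4 AKR/J and 3 C57Bl/6J arrays, showed 0.11 (-0.25 to 0.47; adjusted p = 0.677). The single probe set of Cdkn1c, the imprinted gene of p57, was not detected on any array and was not tested; its values were 2.62 to 2.63 in AKR/J against 2.61 to 3.24 in C57Bl/6J.

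Rb1, the target of the D cyclin kinases, was at 8.54, 8.58, 8.78 and 8.74 in AKR/J against 8.20, 8.49, 8.54 and 8.45 in C57Bl/6J by 1417850_at. Array 7 and array 1 both lay at 8.54, where the strains met, and the difference did not pass (0.24, 95% interval 0.01 to 0.46; adjusted p = 0.148). On the MAS5-type signals the sign turned (difference -0.04). Its other probe set, 1444400_at, was detected on 1 C57Bl/6J array and was not tested.

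Around these members, a few genes of the G1 to S step differed between the strains, among them E2f1, Ezh2 and Bmi1. Of 42 other genes of this step, chosen with earlier results of these data known, 40 had a probe set naming them alone and 36 were tested. Of the 36, 6 were called higher in AKR/J, where 7.79% of all genes were, and 1 was called lower, where 8.53% were; 29 were not called. The lean to AKR/J depended on the processing, as the MAS5-type signals gave 2 called higher and 2 called lower. The median difference was 0.04, against 0.00 over all tested genes.

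The transcription factor gene E2f1, whose protein Rb1 restrains, averaged 6.75 ± 0.07 in AKR/J against 6.14 ± 0.26 in C57Bl/6J (SD, n = 4 each), a 1.52-fold excess (limma adjusted p = 0.0169), and 2 of its 2 probe sets were called. E2f6, which encodes a repressing E2F, was 1.75-fold higher in AKR/J (adjusted p = 0.00207), and the E2F partner gene Tfdp2 1.26-fold (adjusted p = 0.0344). Cks1b, a cofactor in the destruction of p27, was 1.45-fold higher (adjusted p = 0.0208). Men1, which encodes menin, known to keep Cdkn2c and Cdkn1b expressed in islets, was 1.34-fold higher (adjusted p = 0.0162).

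Ezh2, a histone methyltransferase gene, was 1.84-fold higher in AKR/J (4.98 ± 0.12 against 4.10 ± 0.14, SD, n = 4 each; adjusted p = 0.00074), and the Polycomb gene Bmi1 was 1.36-fold higher in C57Bl/6J (9.97 ± 0.13 against 10.41 ± 0.09; adjusted p = 0.0122). Both are known for keeping the INK4 gene Cdkn2a silent in beta cells, and Cdkn2a itself did not pass the detection filter. With the MAS5-type signals 4 of these genes lost their call: Ezh2 (difference 0.51, adjusted p = 0.149), E2f1 (0.68, 0.115), Cks1b (0.38, 0.103) and Tfdp2 (0.20, 0.533). Leaving out array 1, 2, 4, 5, 6 or 8 also ended the call of Tfdp2 (highest adjusted p 0.0915), and leaving out array 2, 4 or 6 that of Cks1b (highest 0.0594).

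Genes that E2F switches on for DNA synthesis and division stood higher in AKR/J in part. Of 19 listed, 14 were tested, 8 were called higher (7.79% of all genes) and 0 were called lower (8.53%), with a median difference of 0.83. For Cdk1 and Mki67, among the 8, the 4 AKR/J detections alone met the filter, so these calls support no count over the list. For Mcm6, not called, the 4 C57Bl/6J detections alone did. Among genes detected on all 8 arrays, 11 were tested, 7 were called higher and 0 lower. Under that filter 1240 of 15817 probe sets were called higher and 1369 lower. The mitotic kinase gene Cdk1 averaged 6.16 ± 0.31 in AKR/J against 3.79 ± 0.66 in C57Bl/6J (SD, n = 4 each), or 5.16-fold (limma adjusted p = 0.00233). The topoisomerase gene Top2a was 5.27-fold higher, the proliferation marker Mki67 4.70-fold, the ribonucleotide reductase genes Rrm2 3.30-fold and Rrm1 2.08-fold, and the S-phase cyclin gene Ccna2 2.19-fold. Cdk1 and Mki67 were each detected on 2 of 4 C57Bl/6J arrays. Top2a and Ccna2 were detected on 4 of 4, but their C57Bl/6J means, 3.49 and 3.59, were lower than that of Cdk1. The sizes of the Cdk1, Mki67, Top2a and Ccna2 differences thus rest in part on signals near background. On the MAS5-type signals Cdk1, Mki67 and Rrm1 differed by 1.60, 1.83 and 0.55 on the log2 scale, against 2.37, 2.23 and 1.06. Ccna2 was not called on those signals (0.80, adjusted p = 0.0724), with no detection filter (0.0759), or when array 2, 4, 6, 7 or 8 was left out (highest adjusted p 0.0642). Rrm2 was not called with no filter (adjusted p = 0.0595). The other called genes, Mcm2 and Mcm7 of the replicative helicase, kept their calls in 1 and 2 of the 8 fits that left out an array. For Rrm2 2 of 2 probe sets were called, for Mcm7 2 of 4, and for Rrm1, Ccna2 and Mcm2 1 of 2 each. The uncalled ones of Rrm1, Ccna2 and Mcm2 gave 0.52, 1.06 and 0.47 (limma adjusted p = 0.168, 0.139 and 0.13). Mcm5, not called by its brightest probe set, was called by its other (1.23, adjusted p = 0.0183). The count fell to 5 without array 2, 6 or 8, and without array 3 it was 6 higher and 1 lower.

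**Figure D5:**
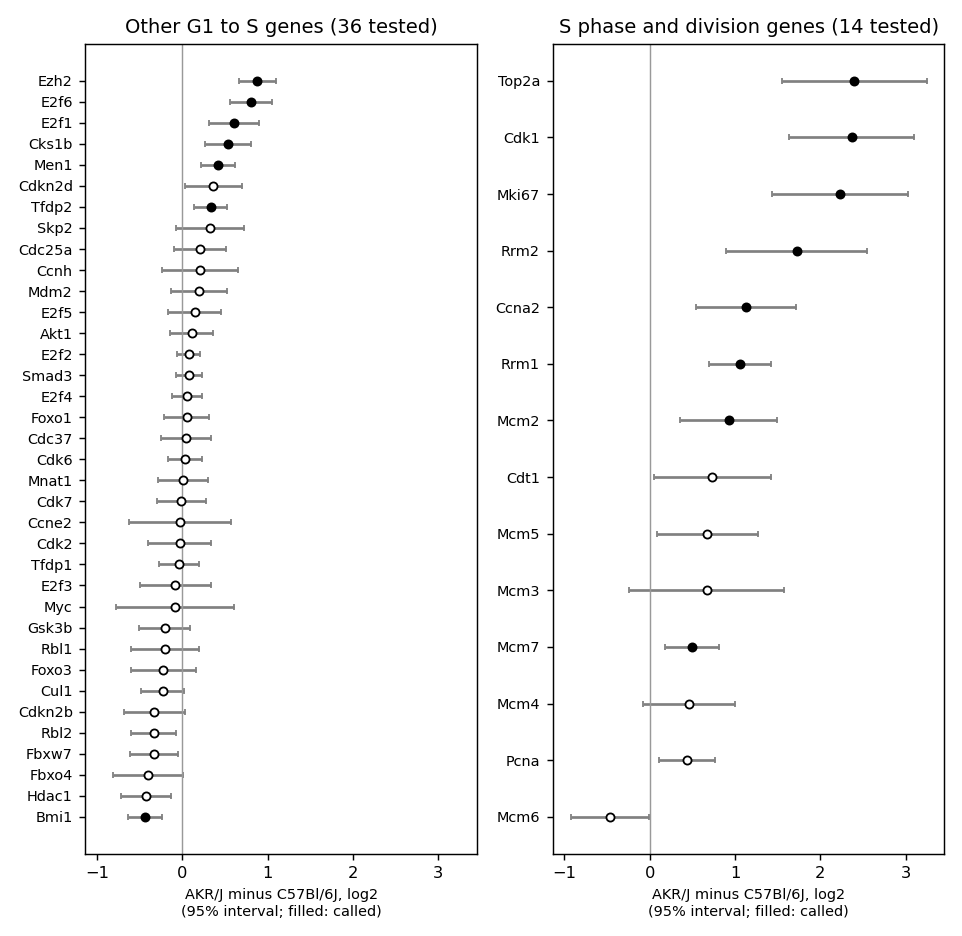
Strain difference (x axis, AKR/J minus C57Bl/6J, log2 GCRMA value) with its 95% interval for the 36 tested other genes of the G1 to S step (left) and the 14 tested S phase and division genes (right), each gene (y axis) by its brightest tested probe set; filled points are called. On the right 8 of 14 are called, all higher in AKR/J, and on the left 7 of 36.

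Markers of other cells in the preparations moved with the strains too. The share called over all genes was 7.79% higher and 8.53% lower in AKR/J. The hormone genes were bright, with Ins2 at 15.71 ± 0.07 and 15.50 ± 0.05 and Gcg at 15.37 ± 0.11 and 15.36 ± 0.03 (SD, n = 4 each), neither called. Of 7 beta cell markers, Ucn3 and the glucose transporter gene Slc2a2 were called lower in AKR/J (-0.52 and -0.56, limma adjusted p = 0.00559 and 0.0152) and 0 were called higher. Sums of their linear GCRMA values, in which the brightest genes weigh most, were 127693 to 137286 against 120451 to 127650. Their mean log2 values per array overlapped, at 12.89 to 13.05 against 12.90 to 13.11, and the median difference was 0.01. Of 5 other endocrine markers, the hormone gene Ppy was called higher (0.89, adjusted p = 0.034) and 0 were called lower. The sums, which include the bright Ppy, were 81124 to 92845 against 68762 to 77133. Mean log2 values of these 5 per array overlapped, at 11.18 to 11.53 against 11.11 to 11.23, and the median difference was 0.06. Acinar markers were also bright, and 9 of 9 tested were called lower in AKR/J; their summed linear GCRMA values were 129405 to 147906 in AKR/J against 211836 to 220435 in C57Bl/6J. Of 7 macrophage markers 5 were called lower in AKR/J (sums of 961 to 1277 against 1430 to 1745), and of 7 endothelial markers 4 were called higher (2001 to 2604 against 1789 to 1986). Of 3 tested lymphocyte markers 1 was called lower, of 6 mesenchymal markers 2 and of 2 duct markers 1, and 2 lymphocyte genes and 1 duct gene were not detected on any array. These cells also express D cyclins, kinase inhibitors and division genes, and their part in the Cdkn2c, E2f1 and division gene differences was not tested.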

How the data were processed

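Islet RNA of 4 AKR/J and 4 C57Bl/6J samples was hybridised to Affymetrix mouse arrays, from 5 µg each per the labels. The value table holds linear intensity values, which the authors computed with GCRMA according to the submitters' processing notes (version not given in the sources used here), and they were log2-transformed here with no further normalization. Per array, the deposited files give a MAS5-type intensity (signal) and a detection p-value, per the file headers. GCRMA summarises probes across arrays, so a value also depends on the other arrays. Columns of the value table correlated with their own per-array file at r of at least 0.69 and with any other at up to 0.503, as deviations from probe set means.

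Of 45101 probe sets 64 controls were left out, and 34945 name 1 gene. The fit used the 20772 detected (p under 0.05) on at least 4 of 8 arrays, with limma's lmFit and eBayes, AKR/J minus C57Bl/6J and Benjamini-Hochberg adjustment over all of them; a gene is represented by its tested probe set of highest mean. A fold against a strain with no detection was set against the higher, on each of that strain's arrays, of the measured value and the lowest detected value. For Ccnd3 1438805_at the measured value was the higher, so that fold equals the ratio of the means. Named are all members, the called genes of the other G1 list and the 6 division genes with the smallest p. Members and lists were chosen with earlier results of these data known.

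Alternatives were no detection filter or on every array, the MAS5-type signals (floor at the 5th percentile of each array, log2, quantile normalization), centring on medians, a second quantile step on the GCRMA values, array weights, a robust eBayes with trend, the mean of a gene's probe sets, adjustment over genes, no _x_at or _s_at probe sets, and leaving out each array. On simulated data with the spread of these arrays and 200 of 20772 probe sets changed, recovery was 36% at 1.5-fold, 72% at 2-fold and 96% at 4-fold, beside 5 false calls. In the data themselves 2968 probe sets (14.3%) were called. With fewer changed probe sets the adjustment is stricter, so recovery in the data may be higher than in the simulation. Gene symbols came from the platform annotation, and 0 changed through RefSeq identifiers (GRCm38.p6). R 4.3.3, limma 3.58.1, Python 3.11.15 and matplotlib 3.10.9 were used.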

Additional observations from a re-analysis of the deposited data

Results flagged for a closer look

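In 7 of 52 groups of 4 arrays (26 probe sets in 2 strains) a single array stood apart from the other 3 by more than Dixon's 95% critical value, where chance flags about 1 group in 20. For Ccnd3, array 1 was at 8.45 on 1415907_at against 7.97 to 7.99 on the other AKR/J arrays, array 2 at 4.60 on 1438805_at against 4.40 to 4.43, and array 7 at 3.18 on 1444323_at against 3.40 to 3.41 on the other C57Bl/6J arrays. For Ccne1 on 1416492_at, array 4 was at 5.04 against 4.95 to 4.96 and array 7 at 4.41 against 4.93 to 4.94. For Cdk4 on 1422440_at, array 6 was at 8.76 against 8.48 to 8.52 on the other C57Bl/6J arrays, and for Cdkn1c array 7 was at 3.24 against 2.61 to 2.63. Apart from Ccnd3 1415907_at and Cdk4 1422440_at, none of the 7 was detected on any array of that strain.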

How the results depend on the processing

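No paired analysis was possible because the strains share no replicate numbers. The 6 calls among the members became 4 to 6 under the alternatives and 4 to 5 with an array left out. The calls of Cdkn2c and of Ccnd2 1448229_s_at and 1416123_at held under every alternative run on them, and the 22 recomputed values that lost a call belonged to Ccnd1 1448698_at, Ccnd3 1438805_at and Cdk4 1422440_at. The count of called member genes was 1 to 2 with an array left out: without array 4 the brightest Ccnd1 probe set became 1448698_at, which was called (-0.49, adjusted p = 0.0269). Of the other G1 genes 4 were called with the MAS5-type signals, 2 higher and 2 lower in AKR/J. With the mean of a gene's probe sets 9 were called, 6 higher and 3 lower, and 5 to 8 with an array left out. Of the division genes 4 were called with no detection filter, where 45037 probe sets are adjusted for, and 5 to 8 with an array left out.

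Of 326 recomputed member differences 26 changed sign, and none of these was called before or after. With the MAS5-type signals this held for Ccnd2 1455956_x_at (-0.12), Ccnd3 1415907_at (-0.013) and Rb1 1417850_at (-0.043), with array weights for Ccnd2 1416124_at (-0.012), with centring for Ccne1 1441910_x_at (0.033) and Cdk4 1422439_a_at (0.039, and 0.0060 after quantile normalization). With an array left out the ranges were -0.012 to 0.095 for Ccnd1 1417419_at, -0.049 to 0.17 for Ccnd2 1416124_at, -0.018 to 0.24 for Ccnd2 1455956_x_at, -0.079 to 0.053 for Ccne1 1441910_x_at, -0.038 to 0.022 for Cdk4 1422439_a_at, -0.23 to 0.45 for Cdkn1a 1421679_a_at, -0.41 to 0.26 for Cdkn1a 1424638_at and -0.17 to 0.094 for Cdkn1b 1434045_at. The causes were not tested. With 4 arrays per strain, differences near 1.5-fold can be missed.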

Other observations

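The INK4 relatives of Cdkn2c did not pass. Cdkn2d (p19) averaged 7.68 ± 0.26 in AKR/J against 7.31 ± 0.17 in C57Bl/6J (SD, n = 4 each; limma adjusted p = 0.137), and Cdkn2b (p15) at 6.29 ± 0.33 and 6.62 ± 0.07 (adjusted p = 0.199). Of the pocket protein genes related to Rb1, Rbl2 was at 8.07 ± 0.18 and 8.40 ± 0.15 (adjusted p = 0.0947) and Rbl1 at 4.87 ± 0.37 and 5.08 ± 0.09 (adjusted p = 0.466). These 4 were chosen after their values were seen.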
